A study of Mus musculus with 19 samples.

Results

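The 7 genes described here are Mitf, Dct, Pmel, Otx2, Slc45a2, Tyr and Tyrp1, a set of pigment cell and optic vesicle genes listed by name. The list was drawn up with earlier results of these data known, the E11.5 peak among them, so ranks and counts of members describe the set and do not test it. Together they have 13 probe sets that name only the gene, out of 45101 on the array, and no probe set names one of them alongside another gene. Each gene is represented by its main probe set, the one with the highest mean log2 signal over all 19 arrays. The main probe sets of 5 of the 7 genes passed the filter on low values (above 5.46, the median log2 of all values, in at least 3 arrays) and were tested, among 13320 tested genes out of 18193 with a probe set of their own. Tyr and Tyrp1 stayed below that filter.

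On the RefSeq annotation of GRCm38.p6 the genes lie at chr6:97807002-98021360 (Mitf, Entrez 17342), chr14:118012790-118052246 (Dct, 13190), chr10:128695888-128720238 (Pmel, 20431) and chr14:48656781-48667644 (Otx2, 18424). Slc45a2 (22293) lies at chr15:11000721-11029233, Tyr (22173) at chr7:87424771-87493512 and Tyrp1 (22178) at chr4:80834123-80851736. Tyr and Tyrp1 have 3 probe sets each, Mitf and Slc45a2 have 2 each, and the other genes have 1.

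Expression was measured on 19 Affymetrix mouse arrays of wild-type ICR embryos, an albino outbred stock, staged in embryonic days with the plug day taken as E0.5. The lens groups were lens dissected on E10.5, on E11.5 and on E12.5, with 3 arrays per stage, set against 4 arrays of whole embryonic body labelled E10.5 to E12.5. The tooth groups were tooth germ at E13.5 with 3 arrays, set against 3 arrays of whole body labelled E11.5 to E13.5. No group carries a mutation or a treatment. The labels do not say whether replicates are separate litters, pools or hybridisations, so the p-values measure only how far these arrays spread. The small number of arrays limits their precision.

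Pigment is made in the melanosome, an organelle of melanocytes, which come from the neural crest, and of the retinal pigment epithelium, which comes from the outer layer of the optic cup. The optic cup partly encloses the lens during the stages sampled here. MITF, a basic helix-loop-helix transcription factor, is required for both pigment cell types and binds E-box sequences upstream of melanogenic genes. OTX2, a homeodomain factor of forebrain and optic vesicle, acts with MITF in the retinal pigment epithelium. PMEL forms the fibrils of the melanosome. TYR, TYRP1 and DCT are the melanin-forming enzymes, and SLC45A2 is a melanosomal transporter. In albino stocks the TYR protein is inactive, while the pigment epithelium itself still forms.

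The upstream sequences of the enzyme genes show the element through which MITF is known to act, and they are given for that reason. RefSeq windows on GRCm38.p6, running from 250 bases before to 50 after an annotated transcript start, were at hand for 5 of the 7 genes in 10 windows. The 250 bases before the start are printed 5′ to 3′ on the strand of the gene, with the E-box CATGTG in capitals on either strand (CACATG is the same box read from the other strand). They lie at chr14:118052247-118052496 on the minus strand for Dct, chr7:87493513-87493762 on the minus strand for Tyr and chr4:80833963-80834212 on the plus strand for Tyrp1.
Dct: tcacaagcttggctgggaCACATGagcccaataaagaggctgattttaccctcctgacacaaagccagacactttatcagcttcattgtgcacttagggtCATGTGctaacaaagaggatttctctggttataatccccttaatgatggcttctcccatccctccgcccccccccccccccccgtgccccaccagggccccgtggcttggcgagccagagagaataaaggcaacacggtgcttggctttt
Tyr: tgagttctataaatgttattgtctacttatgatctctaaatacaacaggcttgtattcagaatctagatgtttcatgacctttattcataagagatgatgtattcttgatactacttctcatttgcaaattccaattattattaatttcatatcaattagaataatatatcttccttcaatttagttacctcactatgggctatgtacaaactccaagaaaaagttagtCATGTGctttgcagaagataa
Tyrp1: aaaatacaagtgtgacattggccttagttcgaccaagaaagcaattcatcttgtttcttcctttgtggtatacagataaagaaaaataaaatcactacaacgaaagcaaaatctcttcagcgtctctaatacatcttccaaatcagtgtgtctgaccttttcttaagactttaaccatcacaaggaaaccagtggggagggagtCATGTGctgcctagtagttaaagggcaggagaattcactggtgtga
The M-box, an E-box with fixed flanking bases, was taken as the 11 bases AGTCATGTGCT around the E-box of Tyr and was therefore present there by construction. It was also present on the strand of the gene in the window of Tyrp1. Its first base lies at -24 from the start in Tyr and at -49 in Tyrp1. Dct has the stretch ggtCATGTGct on its own strand, which differs from the M-box by A1G, with positions counted from 1 at the 5′ end of the box. The M-box was found on either strand in 7 of 32851 windows of the same length (0.0213%), while the shorter CATGTG, which lies inside it, was found in 14.2%. The letters TAATCC, a binding sequence typical of OTX factors, occurred at -119 in the Dct window on the strand of the gene. On the opposite strand they occurred at 5 in the Tyrp1 window, at -119 in a Mitf window and at -211 in an Otx2 window, and 7.06% of all windows held them on either strand.

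Within groups, array profiles over all probe sets correlated at 0.964 to 0.995. Lens markers checked the lens label: 12, 13 and 14 of 14 tested lens genes were higher than in body, taking the 3 stages in order. Of all tested genes 13.5%, 14.7% and 16.6% were called higher at these stages. In tooth germ 7 of 8 tested dental genes were higher than in body, where 16.6% of all tested genes were. One array stood apart. In E10.5 lens the mean of the 14 lens genes was 8.93 and 8.85 on the log2 scale on replicates 1 and 2 but 11.67 on replicate 3, against 10.15 to 11.19 in E11.5 lens and 12.06 to 12.15 in E12.5 lens. Member results that use E10.5 lens, and the list counts of the E11.5 contrast, are therefore also given without its replicate 3. Signal of the bacterial spike-in probe sets also splits the lens-series arrays, into a high and a low set that each hold every lens stage and body. In the tooth series that split coincides with the groups, so control signal and tissue cannot be told apart there. The control level used below is 4.71 on the log2 scale, the 95th percentile over 27 control probe sets that have nothing to bind in mouse RNA.

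Pmel, the fibril protein of the melanosome, had its peak in E11.5 lens. Its log2 signal was 6.69, 6.99 and 7.21 on the E10.5 lens arrays, 8.45, 8.63 and 8.93 on the E11.5 lens arrays and 7.09, 7.30 and 7.14 on the E12.5 lens arrays, against 6.30, 6.13, 6.16 and 6.14 on the body arrays of the lens series. The lowest E11.5 array lay above every other array of the series, and each lens array lay above each body array of its series. On the tooth germ arrays Pmel was at 5.99, 5.59 and 6.26, against 6.99, 7.13 and 7.0 in the body arrays of the tooth series, so each of those body arrays lay above each tooth germ array. In these bulk samples, fewer cells of a type and less RNA per cell cannot be told apart. In the order of the 6 groups E11.5 lens came first and apart from the rest. E12.5 lens, tooth-series body and E10.5 lens followed with overlapping arrays. Lens-series body and tooth germ came last and overlapped each other.

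Dct, dopachrome tautomerase, showed the same order of stages. It was at 6.04, 6.42 and 6.20 in E10.5 lens, 7.68, 7.31 and 7.62 in E11.5 lens and 6.71, 6.31 and 6.57 in E12.5 lens, against 5.33, 5.52, 5.67 and 5.2 in lens-series body. The E11.5 arrays did not overlap with either neighbouring stage, while the E10.5 and E12.5 arrays overlapped each other. The tooth germ arrays spread widely, at 6.19, 7.07 and 5.24, against 7.11, 7.01 and 6.59 in tooth-series body. Over the 9 lens arrays Dct and Pmel correlated at r = 0.931, a description of arrays that share their stages.

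Mitf had a different course. Its main probe set was at 6.85, 6.68 and 7.13 in E10.5 lens, 7.04, 7.29 and 7.44 in E11.5 lens and 7.41, 7.50 and 7.50 in E12.5 lens, against 5.96, 6.17, 5.26 and 5.57 in lens-series body. Neighbouring stages overlapped, whereas the E12.5 arrays lay above all E10.5 arrays and all lens arrays lay above all body arrays. No lens stage step of Mitf passed the test: E12.5 minus E10.5 lens was 0.59 (95% interval 0.04 to 1.14, limma adjusted p = 0.127). The second Mitf probe set stayed below the control level on all arrays, at 3.22 to 4.27, and gives no check of the first. Over the 9 lens arrays Mitf correlated with Pmel at r = 0.307 and with Dct at r = 0.255, also as a description.

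Otx2 was the member that was lower in lens than in body. It was at 6.59, 6.54 and 6.39 in E10.5 lens, 6.92, 7.0 and 7.08 in E11.5 lens and 5.27, 5.06 and 4.45 in E12.5 lens, against 7.46, 7.87, 7.75 and 7.88 in lens-series body. No 2 of these 4 groups overlapped. Forebrain and midbrain are known sites of Otx2 expression in the embryo. By E12.5 the lens signal was near the control level, above it on 2 of 3 arrays. In tooth germ all arrays were below the control level, at 4.14, 3.78 and 4.19, against 6.69, 6.74 and 6.31 in tooth-series body, so tooth germ has only a bound there.

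Slc45a2 was called in no comparison. Its main probe set ranged from 5.55 to 6.31 over the lens arrays and from 5.95 to 6.18 over the lens-series body. All neighbours in the order of the 6 groups overlapped. The E10.5 lens arrays lay below all E11.5 and E12.5 lens arrays and below all lens-series body arrays, without a call. On the second Slc45a2 probe set these groups overlapped. Tyr, tyrosinase, was below the control level on all 19 arrays and with all 3 probe sets, at 3.95 to 4.45 for the main one in lens and 3.84 to 4.18 in lens-series body. Tyrp1 was below the control level on all lens and lens-series body arrays. Its main probe set was at 3.69, 4.12 and 3.97 in E10.5 lens, 4.21, 4.51 and 4.43 in E11.5 lens and 3.81, 4.26 and 4.34 in E12.5 lens, against 3.88, 3.49, 3.93 and 3.93 in lens-series body. The E11.5 arrays lay above all body arrays, and with no filter on low values that difference had a limma adjusted p of 0.0272, but both groups are within the background and no fold is given. In tooth-series body Tyrp1 was above the control level on all arrays, at 5.44, 5.12 and 5.10, which is at least 1.43-fold higher than the control level that bounds lens-series body. A second Tyrp1 probe set was also higher there, at 5.17, 5.13 and 4.95, while the third was below the control level on those arrays, at 3.20 to 3.51.

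**Figure D1:**
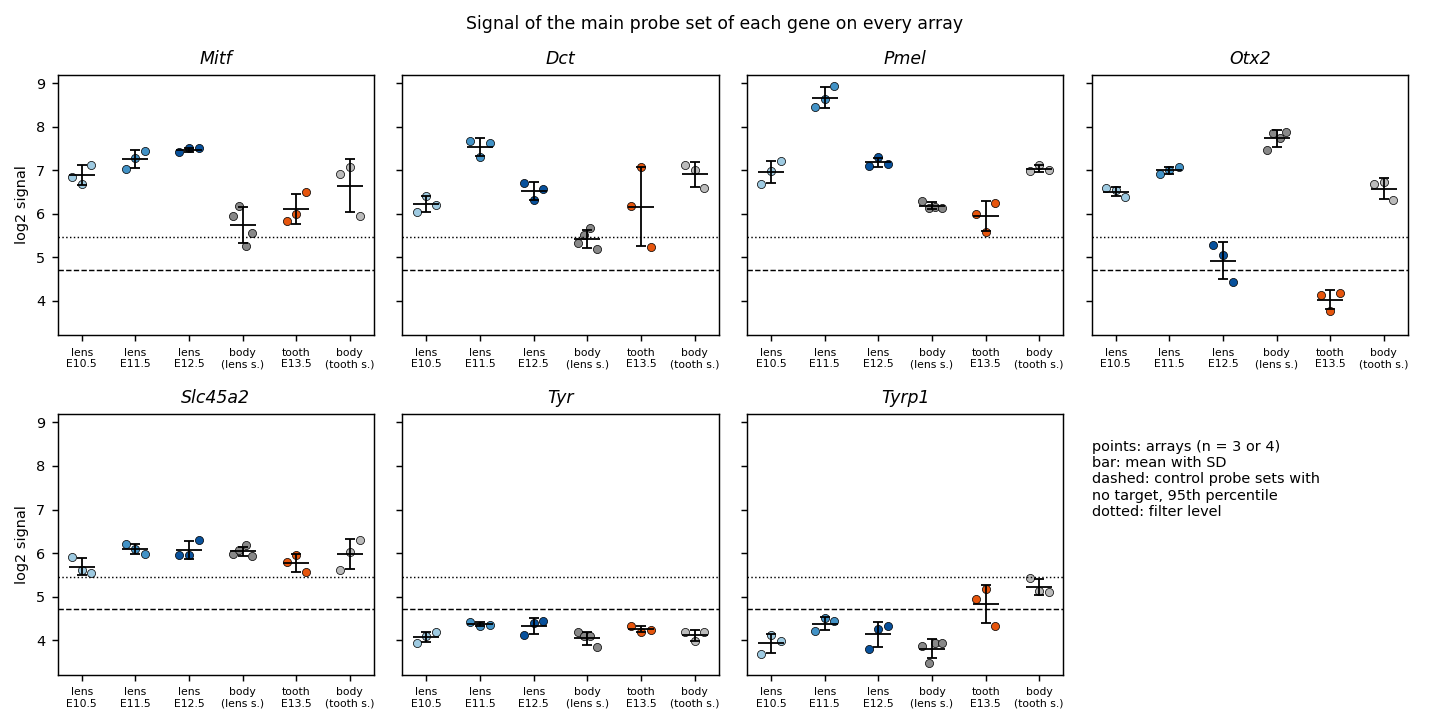
Log2 signal of the main probe set of each of the 7 genes on every array, by group on the horizontal axis, with the group mean and SD. The dashed line is the control level of 4.71 and the dotted line the filter level of 5.46. Pmel and Dct stand highest in E11.5 lens, Otx2 drops towards the control level in E12.5 lens, and Tyr stays below that level on all arrays.

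The first comparison asked which members are enriched in lens over the whole body of the same series, the measure the study was designed to give. Mitf, Dct and Pmel were higher in lens at all 3 stages and Otx2 was lower at all 3, while Slc45a2 was not called at any. For the 3 genes that were higher this is 3 of 5 tested members at each stage. The share of all tested genes called higher was 13.5%, 14.7% and 16.6% at the 3 stages in order. The 3 comparisons share their 4 body arrays. Lower calls were 1 of 5 members at each stage, against 19.1%, 22.3% and 26.7% of all tested genes at the 3 stages, so the members' share of lower calls was near the background.

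At E11.5 Pmel was 5.59-fold higher in lens than in body (8.67 ± 0.24, n = 3, against 6.19 ± 0.08, SD, n = 4; log2 difference 2.48 ± 0.16 SE, limma adjusted p = 2.44e-10). Dct was 4.30-fold higher (7.53 ± 0.20 against 5.43 ± 0.21; 2.11 ± 0.28, adjusted p = 5.44e-06 by limma). Mitf was 2.86-fold higher (7.26 ± 0.20 against 5.74 ± 0.41; 1.52 ± 0.25, limma adjusted p = 6.23e-05). The 3 differences were smaller at E10.5, at 0.78 for Pmel, 0.79 for Dct and 1.15 for Mitf. At E12.5 they were 0.99, 1.10 and 1.73 in the same order of genes, so Mitf alone of the 3 had its highest value at the last stage. The Dct difference at E10.5 is the weakest of these calls (limma adjusted p = 0.0339), and without replicate 3 of E10.5 lens it was 0.80 with a limma adjusted p of 0.0697. Pmel without that array was 0.65 higher at E10.5 and was still called (adjusted p = 0.00758 by limma), as was Mitf at 1.02 (adjusted p = 0.00885 by limma).

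Otx2 was lower in lens than in body by log2 differences of -1.24, -0.74 and -2.81 over the 3 stages in order (SE 0.18 each; limma adjusted p = 1.53e-05, 0.00259 and 1.58e-10). The first of these was -1.18 and still called without replicate 3 of E10.5 lens. The E11.5 difference was -0.89 within the high and -0.63 within the low set of control signal, where its limma adjusted p was 0.0526. The high set holds 1 array of E11.5 lens. Pmel was 2.30 and 2.56 higher at E11.5 within these sets, Dct 2.08 and 2.20, and Mitf 1.33 and 1.60. Slc45a2 differed from body by -0.36 (95% interval -0.69 to -0.03), 0.05 (-0.28 to 0.39) and 0.03 (-0.30 to 0.36) at the 3 stages. Its second probe set, above the control level on all 19 arrays, differed by 0.14, 0.33 and 0.15, with the opposite sign at E10.5. It was not called at any stage in a limma fit of all probe sets naming 1 gene.

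**Figure D2:**
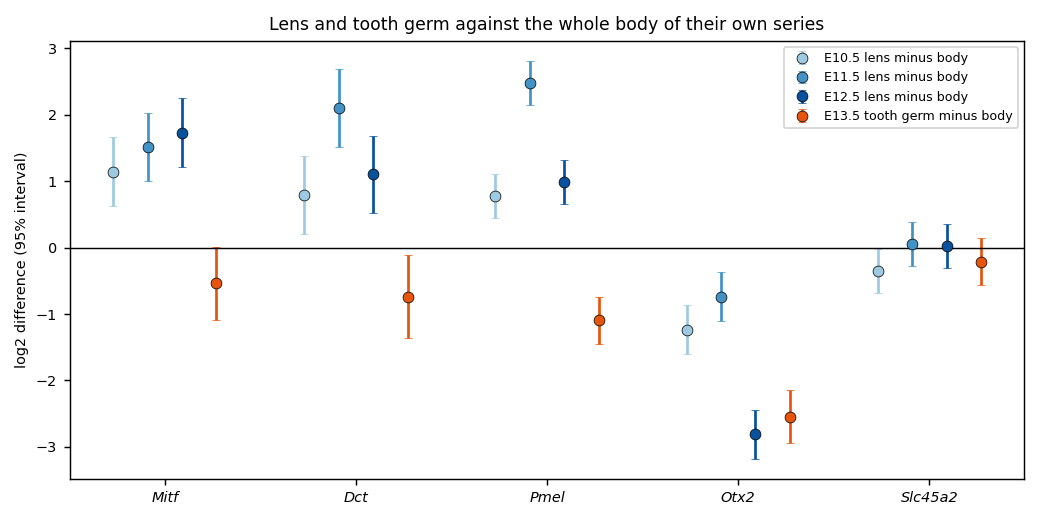
Log2 difference of each tested gene between lens at 3 stages or tooth germ and the whole body of its own series (vertical axis), with 95% intervals from limma; positive values are higher in the tissue. Mitf, Dct and Pmel lie above 0 in lens and below 0 in tooth germ, where the interval of Mitf reaches 0.01 and Dct and Mitf were not called.

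The second comparison followed the peak through the lens stages. Pmel rose by 1.71 on the log2 scale in E11.5 lens relative to E10.5 lens (95% interval 1.35 to 2.06, limma adjusted p = 5.07e-06), and Dct rose by 1.31 (0.69 to 1.93, adjusted p = 0.0139 by limma). Without replicate 1 of E10.5 lens the Dct difference was 1.22 and lost its call (limma adjusted p = 0.0691), which leaves 1 of 5 members. Without replicate 3 it was 1.30 for Dct and 1.83 for Pmel, both called. With all arrays these are 2 of 5 tested members, where 1.52% of all tested genes were called higher, and 0 of 5 were lower, where 2.74% were. In E12.5 lens relative to E11.5 lens Pmel fell by 1.49 and Otx2 fell by 2.07 (limma adjusted p = 3.22e-05 and 3.95e-06), 2 of 5 where 3.45% of all tested genes were called lower. None of the 5 was higher in that step, where 3.02% were. The Dct difference of the second step was -1.001 with an adjusted p of 0.0502 from limma, just outside the threshold of 0.05. Between E12.5 and E10.5 lens only Otx2 was called, lower by a log2 difference of -1.58 (adjusted p = 6.24e-06 from limma), where 13.2% of all genes were called lower and 8.91% higher. For Pmel the E12.5 minus E10.5 difference was 0.22 (-0.14 to 0.57). Without replicate 3 of E10.5 lens these were -1.63 for Otx2, still called, and 0.34 for Pmel and 0.71 for Mitf, both not called.

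The E11.5 peak was known from earlier results of these data. The p-values of the stage steps and of the next contrast are therefore no independent test of that peak. Set as one contrast, E11.5 lens minus the mean of E10.5 and E12.5 lens, Pmel was higher by 1.60 ± 0.15 SE (3.03-fold, limma adjusted p = 2.17e-05). Of 13320 genes it ranked 1 by the size of the difference. Otx2 was higher by 1.28 ± 0.16 (2.43-fold, adjusted p = 0.000871 by limma) and ranked 7. Dct was higher by 1.16 ± 0.26 (limma adjusted p = 0.0541) and ranked 12, without a call. Mitf at 0.08 (95% interval -0.40 to 0.56) and Slc45a2 at 0.22 (-0.09 to 0.53) gave no call. The 2 called members compare with 20 called genes in all, 0.15% of those tested, and 0 of 5 members were lower, against 0.3%. Pmel and Otx2 reached this contrast by different courses: the Pmel arrays of E10.5 and E12.5 lens overlapped, whereas Otx2 differed by 0.49 between E11.5 and E10.5 lens without a call (adjusted p = 0.173 from limma) and then fell.

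By array, leaving out each of the 9 lens arrays in turn gave a Pmel peak of 1.47 to 1.71 and an Otx2 peak of 1.16 to 1.37, all called. With each lens array left out in turn Dct stayed between 1.09 and 1.27, with limma adjusted p from 0.0696 to 0.215. With only the lens arrays in the fit Otx2 was not called (limma adjusted p = 0.0507), while Dct was. That fit called 2 genes higher in all. Without replicate 3 of E10.5 lens the peak was 1.66 for Pmel, 1.25 for Otx2 and 1.15 for Dct. Within the high set of control signal, which holds E11.5 replicate 1, it was 1.48 for Pmel, 1.00 for Otx2 and 1.20 for Dct, and within the low set 1.56, 1.47 and 1.14 in the same order of genes. The high set has a single array of E11.5 lens and a single one of E12.5 lens, and the low set has only replicate 3 of E10.5 lens, so these within-set values are given with no test. Averaged over the 5 tested members, the E11.5 lens arrays were at 7.26, 7.27 and 7.41, above the range of 6.41 to 6.50 in E10.5 lens and 6.40 to 6.49 in E12.5 lens.

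Other genes of the pigment pathway were taken from lists of melanosome, regulator, pigment epithelium and optic vesicle genes. Of 32 genes of melanosome and melanin synthesis, 30 had a probe set naming only the gene and 25 were tested. None of the 25 was called in the E11.5 contrast, with a median difference of -0.09, against 0.01 over all tested genes. Against body in E11.5 lens 3 of the 25 were higher and 4 lower, set beside 14.7% and 22.3% of all tested genes. The higher ones were Oca2, Rab38 and Slc3a2, and the lower ones Rab32, Dtnbp1, Atp7a and Atp6ap2. On average Atp7a was at 8.17 in E11.5 lens and 9.10 in body, and Rab32 was at 5.37 and 6.27. Oca2, a melanosomal transport protein, was at 5.49, 6.41 and 6.86 on average in E10.5, E11.5 and E12.5 lens, against 5.36 in body; it rose by 0.92 in E11.5 relative to E10.5 lens (limma adjusted p = 0.011), with a further difference of 0.45 at E12.5 that was not called. The Oca2 rise was still called without replicate 3 of E10.5 lens (limma adjusted p = 0.0114). Slc3a2, a subunit of amino acid transporters that many tissues use, was 2.24 higher than body at E11.5 and had no peak (0.03). Mlana and Gpr143, both melanosome proteins of pigment cells, stayed below the control level on all lens arrays, at 3.95 to 4.51 and 4.07 to 4.41.

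Of 15 tested genes of pigment epithelium function, 1 was called in the E11.5 contrast, where 0.15% of all tested genes were higher and 0.3% lower. It is the cation channel gene Trpm1, known in melanocytes, pigment epithelium and retinal bipolar cells. Trpm1 was at 6.70, 6.74 and 7.10 in E10.5 lens, 6.94, 8.13 and 7.93 in E11.5 lens and 5.88, 6.79 and 6.38 in E12.5 lens, against 5.10, 5.28, 5.59 and 5.11 in body. Replicate 1 of E11.5 lens lay within the range of the E10.5 arrays. The Trpm1 peak was 1.07 ± 0.23 (limma adjusted p = 0.038), or 1.13 without replicate 3 of E10.5 lens (adjusted p = 0.03 by limma), and it was 2.40 higher in E11.5 lens than in body. Against body at E11.5, 3 of the 15 were higher and 7 lower, beside 14.7% and 22.3% of all tested genes. Ttr, among the lower ones, averaged 6.37 in E11.5 lens and 11.71 in body. Rpe65 and Rlbp1, visual cycle genes of the mature pigment epithelium, did not pass the filter. Of 15 tested optic vesicle genes none was called in the E11.5 contrast, and 8 were higher and 5 lower than body at E11.5, where 14.7% and 22.3% of all tested genes were, with Pax6 and Six3, which the lens itself expresses, among the higher ones. Of 19 tested pigment regulators and melanoblast signalling genes 1 was called in the E11.5 contrast, Tfap2b at 0.93 ± 0.15, and it also belongs to the periocular mesenchyme list. Against body at E11.5, 4 of the 19 were higher and 12 lower, beside 14.7% and 22.3% of all tested genes. Tfap2b, Erbb3, Snai2 and Sox9 were among the lower ones.

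**Figure D3:**
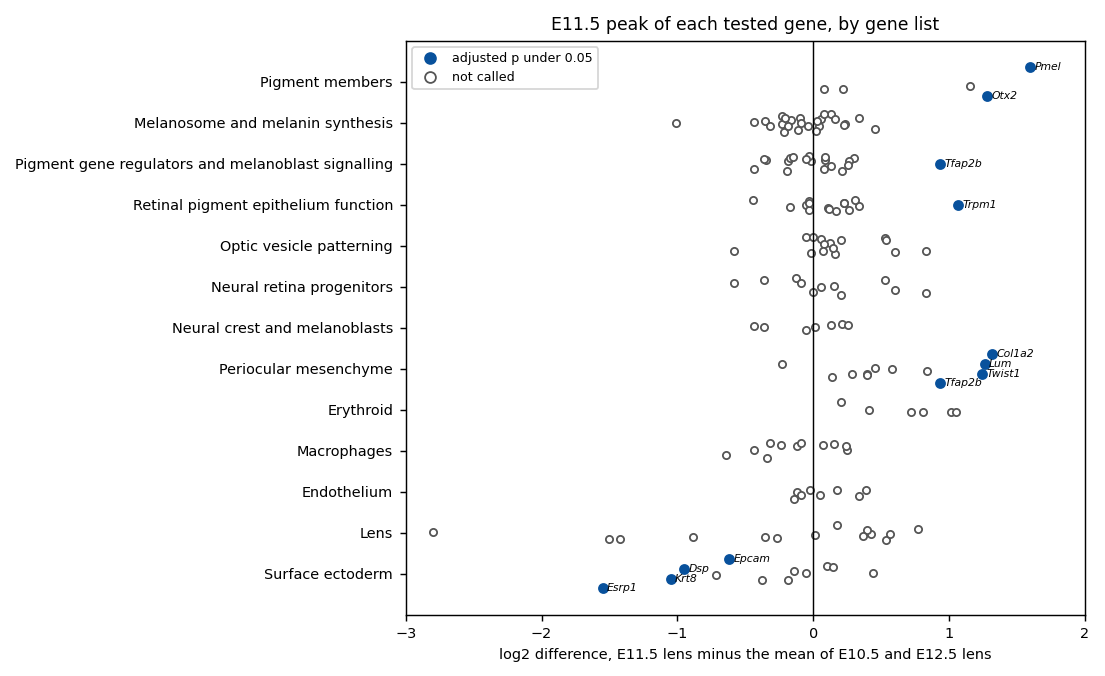
Each point is a tested gene, placed by its log2 difference between E11.5 lens and the mean of E10.5 and E12.5 lens (horizontal axis) and grouped by gene list (vertical axis; vertical scatter within a list carries no value). Filled points passed the test and are named. Pmel lies furthest to the right at 1.60, and most melanosome genes lie around 0.

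Because the dissected lens can carry neighbouring tissue, markers of other cells were read on the same arrays. Of 12 tested periocular mesenchyme markers, 4 were called higher in the E11.5 contrast, where 0.15% of all tested genes were. They are Col1a2 at 1.32, Lum at 1.26, Twist1 at 1.24 and Tfap2b at 0.93. Of these only Twist1 was called lower in E12.5 than in E11.5 lens (-1.92, limma adjusted p = 0.000246). Col1a2 averaged 8.09, 10.41 and 10.08 over the 3 stages, Lum 8.44, 10.34 and 9.71, and Tfap2b 6.61, 8.32 and 8.17. These 3 were among the 6 of 12 called higher in E12.5 than in E10.5 lens, where 8.91% of all tested genes were. Another 4 of the 12, Foxc1, Foxc2, Twist1 and Pdgfra, were lower there, where 13.2% of all tested genes were. In E12.5 relative to E11.5 lens 4 of the 12 were called lower, where 3.45% of all tested genes were. They are Foxc1, Foxc2, Twist1 and Prrx1. Only Postn was called higher in that step, by 0.83, where 3.02% of all tested genes were. The mesenchyme list mean was 7.12 to 7.73 in E10.5 lens, 8.13 to 8.21 in E11.5 lens and 7.49 to 7.88 in E12.5 lens. It was 9.90 to 10.06 in body. Red cell markers had a list mean of 9.09 to 10.06, 10.13 to 10.61 and 9.64 to 9.995 at the 3 stages. Their mean was 11.46 to 11.56 in body, and 0 of 6 were called in the E11.5 contrast. The contrast called, without replicate 3 of E10.5 lens, 5 of 12 mesenchyme genes, with Prrx1 added, and 1 of 6 red cell genes, Hba-x. For both lists the E11.5 arrays lay above the arrays of the other stages. Against body, 9 of the 12 mesenchyme genes were lower in E11.5 lens and 1 was higher, beside 22.3% and 14.7% of all tested genes. The part of either list in the member results was not tested.

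Neural retina progenitor markers had a list mean of 8.31 to 8.36 in E10.5 lens, 8.12 to 8.39 in E11.5 lens and 7.76 to 8.07 in E12.5 lens, against 7.39 to 7.45 in body, with 0 of 11 called in the E11.5 contrast. Against body at E11.5 the list was split, with 6 of 11 higher and 4 lower, beside 14.7% and 22.3% of all tested genes. Rax, Six6, Six3, Sfrp2, Dkk3 and Hes1 were higher, and Lhx2, Sox2, Hes5 and Fgf15 were lower. In E12.5 relative to E11.5 lens 4 of the 11, Lhx2, Sox2, Sfrp2 and Hes1, were called lower, beside 3.45% of all tested genes. Dkk3 alone was called higher in that step, beside 3.02%. Neural crest and melanoblast markers were at 6.01 to 6.22, 6.03 to 6.26 and 6.07 to 6.30 at the 3 stages. They were at 7.16 to 7.39 in body, with 0 of 7 called in the E11.5 contrast. Against body at E11.5, 5 of these 7 were lower, beside 22.3% of all tested genes, among them Erbb3 by -3.19, Pax3 by -1.62 and Kit by -1.38. Sox10, a factor of neural crest and melanoblasts, was at 6.62 ± 0.30 (SD, n = 3) in E11.5 lens and 6.59 ± 0.17 (n = 4) in body. Ednrb, the endothelin receptor of melanoblasts, was the exception, 0.64 higher than body at E11.5 and 1.76 higher at E12.5. Surface ectoderm markers had a list mean of 7.99, 6.55 and 5.94 over the 3 stages, against 7.51 in body. Of the 12, 4 were called lower at E12.5 relative to E11.5 lens, where 3.45% of all tested genes were. Against body at E11.5, 2 of the 12 were higher and 9 lower, beside 14.7% and 22.3% of all tested genes. In the E11.5 contrast 4 of 12 were lower, where 0.3% of all tested genes were. There 0 of 11 macrophage, 0 of 8 endothelial and 0 of 14 lens genes were called. Without replicate 3 of E10.5 lens 1 lens gene, Crybb1, was called higher in that contrast. Its counts for the other lists in this paragraph and for the pigment lists were the same.

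**Figure D4:**
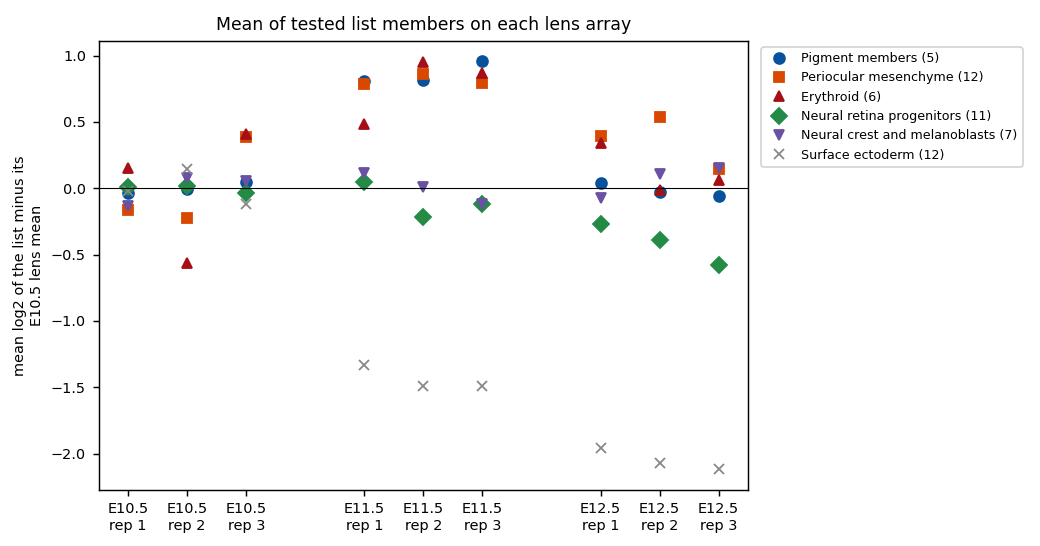
Mean log2 signal of the tested genes of 6 lists on each of the 9 lens arrays, given relative to the E10.5 lens mean of the same list; the number of genes is in the legend. The pigment members, the periocular mesenchyme markers and the red cell markers are higher on the 3 E11.5 arrays, while neural crest and melanoblast markers stay near 0.

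The tooth germ served as a second tissue. None of the 5 tested members was higher there than in its body, where 16.6% of all genes were, and 2 were lower, where 25.3% were. Pmel was at 5.95 ± 0.34 in tooth germ and 7.04 ± 0.08 in body (SD, n = 3 each; log2 difference -1.09, limma adjusted p = 4.21e-05). Otx2 was at least 3.66-fold lower in tooth germ, taking the control level as its bound (measured means 4.03 and 6.58; limma adjusted p = 4.33e-09). Dct at -0.74 (95% interval -1.36 to -0.12, limma adjusted p = 0.0527) and Mitf at -0.54 (-1.09 to 0.01, adjusted p = 0.109 by limma) were not called. Without replicate 3 of the tooth-series body both were (limma adjusted p = 0.000923 and 0.00758), so that 4 members were lower. The main probe set of Tyrp1 was above the control level on 2 of 3 tooth germ arrays, at 4.95, 5.18 and 4.34. Its body arrays were at 5.44, 5.12 and 5.10 and overlapped these (-0.40, not called by limma with no filter). The second probe set was below the control level on all tooth germ arrays, at 3.89, 3.86 and 4.26. It was lower there than in body (limma adjusted p = 0.000208 in a fit of all probe sets naming 1 gene). The size of that difference is only a bound. The third probe set was below the control level in both groups and differed by 0.48, with the opposite sign.

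The difference between tissues was tested as E11.5 lens minus its body less tooth germ minus its body. It was 3.58 ± 0.23 for Pmel, 2.84 ± 0.41 for Dct and 2.06 ± 0.36 for Mitf (limma adjusted p = 1.13e-09, 2.34e-05 and 0.000203). For Otx2 it was 1.81 ± 0.26 (adjusted p = 2.47e-05 from limma), with a tooth germ level that is itself only a bound. These are 4 of 5 tested members, where 17.4% of all genes were called higher, and 0 of 5 were lower, where 16.7% were. Slc45a2 at 0.27 (95% interval -0.22 to 0.75) was not called. The whole-body arrays that serve as the baseline differed between the series: Dct was 1.48, Mitf 0.91 and Pmel 0.86 higher in tooth-series than in lens-series body, and Otx2 was lower by -1.16. In that comparison 31.8% of all genes were called higher and 31.8% lower, and the stage range of the body samples and the series cannot be told apart.

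The tested genes outside the members most like each member over the 9 lens arrays were taken by Pearson correlation. They describe arrays that share stages and libraries. For Pmel they were Col9a1 (0.95), Hspd1 (0.942), Fst (0.937), Pithd1 (0.922) and Necab2 (0.911). For Dct they were Ighmbp2 (0.936), Evc2 (0.918), Slc6a13 (0.905), Htr1b (0.887) and Edn3 (0.886). For Mitf they were Ak1 (0.982), Sgsm2 (0.982), Galnt2 (0.978), Ipo5 (0.978) and Slc7a5 (0.975), and for Otx2 Haus4 (0.976), Vcam1 (0.961), Paics (0.958), Lpar1 (0.957) and Rbm17 (0.957). The lists of these 4 members share no gene. Members were left out of the lists beforehand, and Dct and Pmel themselves correlated at r = 0.931.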

How the data were processed

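Expression was measured on 19 arrays, grouped by the labels. The intensity values deposited by the authors are RMA values per the submitters' processing notes, and affy 0.7 is also listed. RMA in general corrects background, brings arrays to a common distribution and summarises the probes of a set. The genome build is not given in the sources used here. The deposited values run from 5.4 to 25043.5 on a linear scale, with array medians of 42.5 to 46.5, and log2 of the deposited values was taken here with no further normalization.

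Probe sets were named from the platform annotation and updated by Entrez ID to RefSeq symbols (GRCm38.p6), which matched 34741 of 34945 probe sets with 1 gene. Tests used limma 3.58.1 (R 4.3.3): 1 mean per group over 19 arrays, two-sided, Benjamini-Hochberg over 13320 genes whose main probe set exceeded 5.46 on at least 3 arrays, called at an adjusted p under 0.05. Members and lists were chosen with earlier results of these data known. Named genes are the members, up to 4 called genes per list, and the 5 tested genes outside the members most correlated with each member. List genes were taken first by the E11.5 contrast, then by E11.5 lens against body, largest first. With none called, the 2 of highest mean were taken. Other genes were chosen after their values were seen. Alternatives were the filter, centring, quantile normalization, an offset of 32 before log2, the mean of all probe sets of a gene, the arrays in the fit, the variance model, the control signal set, the replicate number as a block, and each array left out; the gene lists without replicate 3 of E10.5 lens were added after seeing the data.

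Replicate numbers were checked for pairing by correlating deviations from group means. Same-numbered arrays correlated at -0.527 to 0.244 between lens stages and body, and all 3 pairs were above 0.1 only between E11.5 and E12.5 lens (0.614, 0.641 and 0.405), where the block changed no member call. On simulated data the fit was tested with known changes. Sequences are from RefSeq.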

Additional observations from a re-analysis of the deposited data

Results flagged for a closer look

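The differences against body differed between lens and tooth germ for 4 members, by the test of that difference itself. For Pmel, E11.5 lens minus body less tooth germ minus body was 3.58 on the log2 scale, for Dct 2.84 and for Mitf 2.06. For Otx2, lower than body in both tissues, it was 1.81, with all tooth germ arrays below the control level. In all 4 the body arrays differed between the series as well, and tooth-series minus lens-series body is a term of this contrast. That term was 1.48 for Dct, 0.91 for Mitf, 0.86 for Pmel and -1.16 for Otx2. What set the 2 body groups apart was not tested.

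Tyrp1 had 1 body array of the lens series far from the others: replicate 2 was at 3.49 against 3.88, 3.93 and 3.93, a gap that makes up 0.89 of the range of the group. All 4 arrays are below the control level. Chance alone marks about 1 in 20 groups in this way.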

How the results depend on the processing

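Of 350 recomputed counts of called members, 346 stayed within 1.5 times the count given and 4 moved; no called difference changed sign. With only the arrays of the groups compared, 1 member (Mitf) was higher in E12.5 than in E10.5 lens, against 0. Within the low control signal set 0 members were lower in E11.5 lens than in body, against 1. Leaving out arrays in turn gave 1 to 2 members higher in E11.5 than in E10.5 lens (1 without replicate 1 of E10.5 lens, where Dct had a limma adjusted p of 0.0691) and 2 to 4 lower in tooth germ than in body. Otx2 lost its E11.5 peak call with only lens arrays in the fit (limma adjusted p = 0.0507). The Dct peak was called under 7 of 20 alternatives (among them both fits within a control signal set, where a stage has 1 array that is assumed to vary like the others) and its E12.5 minus E11.5 difference under 5 of 17. Dct in E10.5 lens against body lost its call under 8 of 18. Replicate numbers pair no samples by the labels; with the replicate number as a block 2 members instead of 3 were higher in E10.5 lens than in body (Dct at 0.72, limma adjusted p = 0.0866), and no other member call changed. Counts over all genes moved by more than 1.5 times in several comparisons: the E11.5 contrast called 2 to 43 genes higher (20 as given, 39 without replicate 3 of E10.5 lens) and 3 to 286 lower (40), E11.5 minus E10.5 lens 9 to 392 higher (203 as given, 342 without replicate 3 of E10.5 lens) and 47 to 1091 lower (365), E12.5 minus E11.5 lens 76 to 602 higher (402) and 63 to 676 lower (459), E12.5 minus E10.5 lens 672 to 1405 higher (1187) and 896 to 2138 lower (1759), E10.5 lens minus body 1196 to 2348 higher (1797) and E12.5 lens minus body 1445 to 2542 higher (2215). The lowest counts of the E11.5 contrast and of both single stage steps came from fits of the compared arrays alone, and those of E12.5 minus E10.5 lens from the high control signal set, which both hold fewer arrays. Signal near the control level limits Tyr, Tyrp1 and Otx2 in E12.5 lens and tooth germ.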

Other observations

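The 20 genes called higher in the E11.5 contrast hold, beside Pmel and Otx2, genes outside the pigment lists; they are named here after their values were seen. Ppbp, a platelet chemokine, was 1.55 higher on the log2 scale (5.04, 7.30 and 6.44 on average in E10.5, E11.5 and E12.5 lens, against 8.29 in body). Fst, which encodes the activin inhibitor follistatin, was 1.40 higher (5.13, 6.67 and 5.41, against 7.84 in body). Dkk2, a Wnt antagonist, was 1.30 higher (6.70, 8.01 and 6.72, against 7.74 in body). Adra2c, an adrenergic receptor gene, was 0.98 higher (7.46, 8.88 and 8.35, against 6.53 in body).

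Among these 20 genes, Pmel, Dkk2, Trpm1 and Adra2c had a higher mean in E11.5 lens than in lens-series body, and the other 16 had a lower one.

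Rab38, which carries cargo to melanosomes, was at 9.63 ± 0.04 in tooth germ and 8.003 ± 0.07 in its body (SD, n = 3 each), and was at 6.99 ± 0.22 in E11.5 lens (n = 3) and 6.47 ± 0.18 in its body (n = 4).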
